A study of Mus musculus with 11 samples.

Results

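Venous endothelial cells are the cells that line the veins and venules of the brain, and here they were picked out cell by cell from single-cell RNA sequencing libraries of mouse brain. A cell counted as endothelial when it carried a UMI (a counted molecule) of at least 3 of the 6 genes Cldn5, Flt1, Pecam1, Cdh5, Ly6c1 and Slco1a4 and of fewer than 2 of 8 genes of mural cells, glia and choroid plexus. It counted as venous when it also carried Ackr1 and at least 1 of Vwf, Il1r1 and Slc38a5, with fewer than 3 of 6 genes of fenestrated vessels. The rule took 2034 cells, 1.54% of the 132437 cells that passed the filters and 7.44% of 27345 endothelial cells.

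Each of the 11 libraries was made with the 10x Genomics 3′ kit from the right brain tissue of 1 mouse. The sham + WT group held 3 wild-type mice after sham surgery and 58 venous cells, and the sham + Lrg1-/- group held 3 knockout mice after sham surgery and 107 venous cells. The MCAO/R + WT group held 2 wild-type mice after middle cerebral artery occlusion and reperfusion and 424 venous cells, and the MCAO/R + Lrg1-/- group held 3 knockout mice after the same surgery and 1445 venous cells. The knockout is conventional, so that every cell of these mice lacks Lrg1 and not the vessel wall alone. According to the methods the knockout mice were older than the wild-type mice, so that genotype cannot be told apart from age. The methods name the substrain of the knockout mice in more than 1 way, so that a difference of substrain from the wild type is not settled, and the labels give no time after reperfusion for these libraries.

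Veins and venules collect the blood that leaves the capillary bed, and they are the main place where leukocytes roll on, stick to and cross the vessel wall. The selectins Selp and Sele slow leukocytes, the immunoglobulin-type ligands Icam1 and Vcam1 hold them, and Ackr1 binds chemokines at the venular surface without signalling as a classical receptor does. Nr2f2 (COUP-TFII) is the transcription factor that keeps venous identity, and Nrp2 is a co-receptor for vascular endothelial growth factors and semaphorins that marks veins and lymphatic vessels. Lrg1, leucine-rich alpha-2-glycoprotein 1, is a secreted protein that modifies TGF-beta signalling in endothelium, and it belongs to the genes that interleukin-6 type cytokines can induce through gp130 and Stat3.

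The libraries differed in ways that touch every comparison. Total UMIs ranged from 37159497 to 171813031 per library, and median UMIs per venous cell from 3964.5 in MCAO/R + Lrg1-/- 5 to 17458 in sham + Lrg1-/- 2. MCAO/R + Lrg1-/- 2 alone gave 1240 of the 2034 venous cells, and no venous barcode was shared between libraries. The deposited cell barcodes of sham + Lrg1-/- 1, 2 and 5 and MCAO/R + Lrg1-/- 1 numbered 15500, 9000, 5650 and 8500, round numbers that neither the labels nor the methods explain. Xist, the transcript of the inactive X chromosome, reached 428 and 403 CPM (counts per 1000000 UMIs of the summed venous cells) in MCAO/R + Lrg1-/- 1 and 2 and was near 0 in the other libraries. The labels give no sex and the methods give it, as male, for the wild-type mice only, so that in each comparison with the MCAO/R + Lrg1-/- group a part of sex cannot be told apart from surgery or genotype. RNA of other cells moved with genotype and surgery. In venous cells, 5 choroid plexus genes summed to 215 to 534 CPM in the 5 wild-type mice and to 2565 to 32167 CPM in the 6 knockout mice, and 5 red cell genes to 6.80 to 2132 CPM against 13318 to 35550 CPM. The sum of 5 oligodendrocyte genes was highest in the MCAO/R + WT mice, with 4992 and 4434 CPM against 734 to 2699 CPM elsewhere. Comparisons below used sums over the venous cells of each mouse, fitted with edgeR's quasi-likelihood test, and the 14 cells of sham + WT 2 were left out of that fit, which therefore held 10 mice. Calls needed an adjusted p (Benjamini and Hochberg, over all genes) under 0.05 together with a fold change of more than 0.25 on the natural log scale. In such sums, fewer cells with a transcript and less of it per cell cannot be told apart.

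The cells chosen by 4 markers also carried venous genes that the rule did not use. Levels in venous cells were set beside those in capillary cells of the same mouse, which carried the lipid transporter Mfsd2a and no Ackr1, as a log2 ratio of CPM + 5. Since the cells were chosen by expression, these ratios are a description without a test. The ratio for Nr2f2 had a median of 1.76 over 10 mice, with a lowest value of 1.19. For Nrp2 the median was 2.05. Both genes were higher in venous cells in 10 of 10 mice.

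The ligands that hold leukocytes stood apart in the same way. Median log2 ratios were 3.01 for Vcam1, 1.87 for Icam1, 3.57 for Selp and 2.58 for Sele, each above 0 in 10 of 10 mice. Genes outside the venous list, named by their ratio, were Ptgs2, the inducible prostaglandin synthase (3.88), the adhesion receptor Adgrg6 (3.02), Ifitm1, an interferon-inducible membrane protein (2.92), and the chemokine Cxcl1 (1.94). Lcn2, a siderophore-binding protein of the acute phase, had a median ratio of 3.89. Of the venous genes not used by the rule, Ephb4, the receptor that marks veins in development, and Tmsb10 had small ratios, with medians of 0.50 and 0.46. On the other side, Mfsd2a (-1.77, a gene that chose the capillary cells) and the chemokine Cxcl12 (-1.79), which is high in capillaries, were lower in venous cells in 10 of 10 mice.

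**Figure D1:**
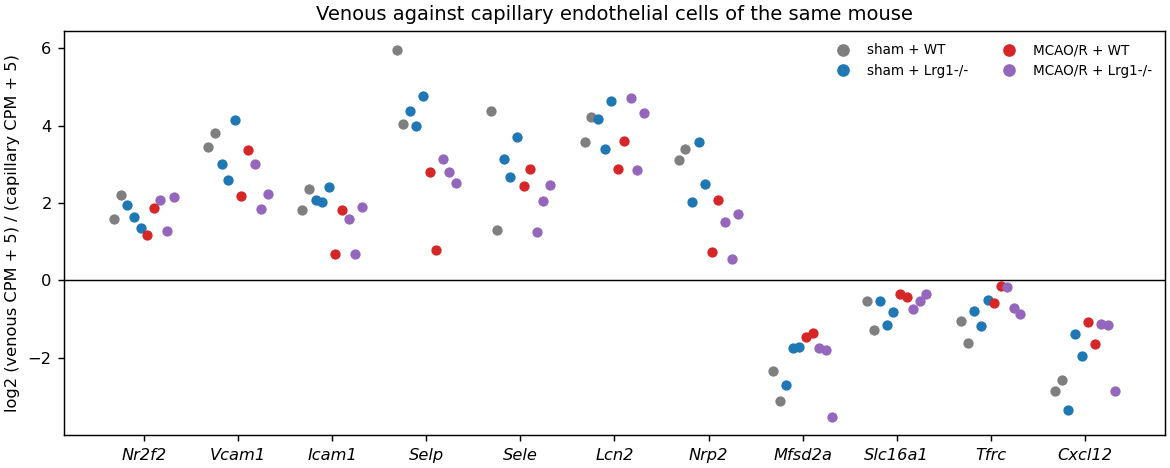
Log2 ratio of the level in venous cells over that in capillary cells of the same mouse (CPM + 5), for 11 genes; each dot is 1 of 10 mice and the line marks no difference. Vcam1, Selp and Lcn2 have medians of 3.01, 3.57 and 3.89, and Mfsd2a and Cxcl12 lie below 0 in every mouse.

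The members varied among themselves. Of the 2034 cells, 85.8% carried Vwf, the von Willebrand factor of blood clotting, 53.1% carried Il1r1, the receptor for interleukin-1, and 46.5% carried Slc38a5, an amino acid transporter. All 3 were present in 581 cells (28.6%), while 879 cells (43.2%) passed with a single one of them. Slc38a5 was found in 77.6% of the sham + WT and 89.7% of the sham + Lrg1-/- venous cells, and in 31.6% and 46.4% of those of the MCAO/R + WT and MCAO/R + Lrg1-/- groups, all pooled over cells. By mouse it was found in 64.3 to 95% after sham surgery and in 26.2 to 66.7% after MCAO/R, so that MCAO/R + Lrg1-/- 1, the highest of the latter, lay above sham + WT 2, the lowest of the former. Cells with Vwf and no Slc38a5 accordingly made up 17.2% and 10.3% in the sham groups and 53.3% and 46.4% after MCAO/R. Within the MCAO/R + WT group, the 226 cells with Vwf and no Slc38a5 had pooled levels of 174 CPM of Nr2f2, 481 CPM of Icam1 and 3791 CPM of Lcn2, below the 395, 1233 and 11433 CPM of the 127 cells with both genes. The same order held in the MCAO/R + Lrg1-/- group, where Nr2f2 stood at 83.4 CPM in 671 cells with Vwf and no Slc38a5 and at 280.5 CPM in 579 cells with both. MCAO/R + WT 1 gave 175 of the 226 cells and 77 of the 127. MCAO/R + Lrg1-/- 2 gave 572 of the 671 and 505 of the 579. These sets were not matched for UMIs per cell, and their levels are not given by mouse.

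Ackr1 itself was the thinnest part of the rule. A single Ackr1 UMI carried 1068 of the 2034 cells (52.5%), and 1082 cells (53.2%) held 1 gene of another cell type, most often the microglial Tmem119 (294 cells) or the oligodendrocyte gene Mog (270 cells). Just outside the rule, 912 endothelial cells with Ackr1 and none of the other 3 markers had pooled levels of 38.6 CPM of Nr2f2, 2.33 CPM of Selp and 57.7 CPM of Vcam1, while 4536 cells with at least 2 of the other markers but no Ackr1 had 144, 1.67 and 146 CPM. Inside the rule the pooled levels were 229, 53.4 and 353 CPM. These levels were pooled over the libraries, in which 0.859% to 29.5% of endothelial cells carried Ackr1, the most in MCAO/R + Lrg1-/- 2. Only 8 cells were turned away by the genes of fenestrated vessels. Ackr1 UMIs also appeared in microglia, a cell type that should lack the gene. Among microglia, 0.211 to 0.323% of cells carried Ackr1 in the sham + WT group, 0.399 to 2.62% in sham + Lrg1-/- mice, 1.62 and 4.51% in MCAO/R + WT mice and 2.09 to 17.1% in MCAO/R + Lrg1-/- mice, at median depths of 2437 to 9100.5 UMIs per cell.

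The share of endothelial cells that met the venous rule averaged higher after MCAO/R. It was 0.83% (95% exact binomial interval 0.53 to 1.24), 0.68% (0.37 to 1.14) and 0.75% (0.46 to 1.15) in the 3 sham + WT mice and 3.86% (2.88 to 5.06), 2.11% (1.29 to 3.24) and 7.79% (5.54 to 10.6) in the 3 sham + Lrg1-/- mice. After MCAO/R it was 8.62% (7.72 to 9.59) and 3.34% (2.76 to 3.99) in the WT mice and 9.08% (6.95 to 11.6), 19.5% (18.5 to 20.5) and 4.92% (4.18 to 5.76) in the Lrg1-/- mice. The sham + WT mice were the lowest and did not overlap with any other group, while the sham + Lrg1-/- mice overlapped with both MCAO/R groups. These intervals cover counting error only.

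Averaged over mice, the share was 9.09% after MCAO/R and 2.67% after sham surgery, a difference of 6.42 percentage points, and 7.88% in Lrg1-/- and 2.85% in WT mice, a difference of 5.03 points. Without MCAO/R + Lrg1-/- 2 the differences were 3.82 and 2.71 points, and without both Xist libraries 2.96 and 1.83 points. The groups were of unequal size, so that each of these differences carries a part of the other factor. Within genotype, the surgery difference was 5.23 points in the WT and 6.58 points in the Lrg1-/- mice. Within surgery, the genotype difference was 3.83 points after sham and 5.19 points after MCAO/R. Since the share is the detection of genes that the rule used, and Ackr1 most of all, it is given as a description with no test.

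Ackr1 itself differed between the groups over all endothelial cells, at 5.31, 2.89 and 2.95 CPM in the sham + WT mice, 58.4 and 18.4 CPM in the MCAO/R + WT mice, 29.1, 6.13 and 46.5 CPM in the sham + Lrg1-/- mice and 173, 257 and 72.1 CPM in the MCAO/R + Lrg1-/- mice. Nr2f2, which the rule did not use, was in the same cells at 86.5, 92.1 and 104 CPM and then 109 and 78.5 CPM in the wild type, and at 136, 89.2 and 89.5 CPM and then 95.4, 92.0 and 71.0 CPM in the Lrg1-/- mice. Nrp2 was at 71.4, 68.8 and 77.1 CPM and then 73.3 and 28.6 CPM, and at 77.4, 67.3 and 54.6 CPM and then 47.8, 74.9 and 56.2 CPM. Both genes overlapped between sham and MCAO/R in each genotype, while Ackr1 did not overlap.

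Other ways to count gave smaller shares. With at least 2 Ackr1 UMIs required, the sham + WT mice held 0.313, 0.244 and 0.374% and the MCAO/R + WT mice 3.6 and 1.51%, with 2.63, 1.06 and 4.42% in the sham + Lrg1-/- mice and 5.25, 9.42 and 2.13% in the MCAO/R + Lrg1-/- mice. The surgery difference was then 2.88 points and the genotype difference 2.94 points. Thinned to 2000 UMIs per cell, with shallower endothelial cells left out (1221 of sham + WT, 401 of sham + Lrg1-/-, 568 of MCAO/R + WT and 1002 of MCAO/R + Lrg1-/- mice), the shares were 0.33, 0.57 and 0.45% in the sham + WT mice, 1.97, 0.65 and 7.74% in the sham + Lrg1-/- mice, 3.99 and 2.36% in the MCAO/R + WT mice and 6.82, 11.4 and 4.04% in the MCAO/R + Lrg1-/- mice. The differences were 3.77 and 3.90 points. The rule was applied anew after thinning, so that cells turned away before for genes of other cell types could enter. In sham + Lrg1-/- 5 endothelial cells went from 475 to 917 in this way and venous cells from 37 to 71. Microglia with an Ackr1 UMI were also most frequent in MCAO/R + Lrg1-/- 2, the library with the largest venous share, and the part of free RNA in the shares was not tested.

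**Figure D2:**
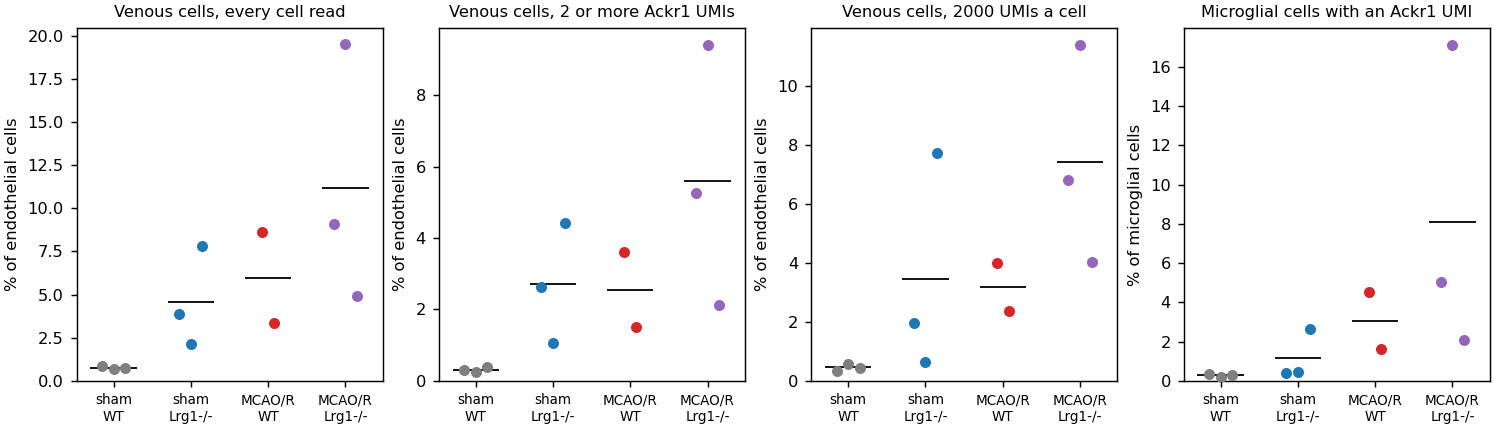
Venous cells as a percent of endothelial cells in each mouse (dots; lines are group means), for the rule, for cells with at least 2 Ackr1 UMIs and for cells thinned to 2000 UMIs, beside the percent of microglia that carry an Ackr1 UMI. The 3 sham + WT mice lie lowest in each panel, between 0.68 and 0.83% under the rule, and MCAO/R + Lrg1-/- 2 lies highest, at 19.5%.

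Lrg1, on chromosome 17 at 56119678 to 56122001 of GRCm38, is the gene that the knockout removes. It stood at 84.2, 204 and 96.6 CPM in the venous cells of the 3 sham + WT mice and at 810 and 1464 CPM in the 2 MCAO/R + WT mice. It was at 0 in all 6 Lrg1-/- mice, as their labels say. The MCAO/R + WT mice did not overlap with the sham + WT mice, and the log2 fold change was 3.54 ± 0.35 (SE, adjusted p = 0.00488). The call held in each of the 10 fits without a mouse. After MCAO/R the WT mice held 8767 Lrg1 UMIs in venous cells and the Lrg1-/- mice none, so that Lrg1 was at least 6514-fold lower against a floor of 3 UMIs over the group.

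Lrg1 was also found in other endothelial cells after MCAO/R, at lower levels. Capillary cells held 0.654, 1.80 and 0.348 CPM in the sham + WT mice and 87.4 and 78.4 CPM in the MCAO/R + WT mice. The share of venous cells with an Lrg1 UMI was 33.3 to 65.0% in the sham + WT mice and 60.2 and 66.1% in the MCAO/R + WT mice. For capillary cells it was 0.322 to 0.735% and then 19.0 and 22.3%, against 14.2 and 15.3% of microglia in the MCAO/R + WT mice. After sham surgery, therefore, Lrg1 UMIs were in 33.3% or more of the venous cells of each sham + WT mouse and in under 1% of the capillary, arterial and microglial cells. Across all endothelial cells the level was 3.46, 6.22 and 3.42 CPM in the sham + WT mice and 170 and 161 CPM in the MCAO/R + WT mice.

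In the wild type, the called members of the gp130, Stat3 and acute phase list were secreted proteins that rose and receptors that fell. There 4 of 16 tested members rose and 2 fell after MCAO/R, against 1.93% and 3.03% of 10041 genes, and in the Lrg1-/- mice 3 rose and 4 fell, against 3.02% and 4.68%. The list's median log2 fold change was 0.37 in the wild type and -0.03 in the Lrg1-/- mice, beside 0.01 and -0.004 over all genes. Lrg1 is among the 16 members and cannot rise in the Lrg1-/- mice, so that the knockout fixes a part of the difference between these counts and medians. The list was chosen with earlier results of these data known. Lcn2 was at 111, 109 and 144 CPM in the sham + WT mice and at 6646 and 7477 CPM in the MCAO/R + WT mice. In Lrg1-/- mice it was at 300, 102 and 906 CPM after sham and at 3055, 2275 and 3254 CPM after MCAO/R. All MCAO/R mice stood above all sham mice of either genotype.

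The log2 fold changes of Lcn2 were 5.68 ± 0.82 (SE, adjusted p = 0.00541) in the wild type and 2.60 ± 0.58 (adjusted p = 0.0243) in the Lrg1-/- mice. Without sham + WT 1 the first adjusted p was 0.0591, and the second was 0.0968 without sham + Lrg1-/- 1 and 0.0576 without MCAO/R + Lrg1-/- 2. Lcn2 UMIs were in 28.6 to 54.2% of venous cells of the sham + WT mice and in 82.6 and 93.2% of those of the MCAO/R + WT mice, where 30.2 and 51.6% of microglia carried them too. The part of free RNA in these shares was not tested. With at least 2 Ackr1 UMIs required, venous Lcn2 in the MCAO/R + WT mice was 13365 and 10540 CPM, against 130, 174 and 163 CPM in the sham + WT mice.

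Serpina3n, a secreted inhibitor of serine proteases, had no UMI in the venous cells of the 3 sham + WT mice and reached 332 and 980 CPM after MCAO/R. Against a floor of 3 UMIs over the fitted sham + WT mice it was at least 166-fold higher, and it was called (adjusted p = 0.00235). In Lrg1-/- mice it went from 0, 4.95 and 3.70 CPM to 117, 188 and 270 CPM, a log2 fold change of 6.22 ± 0.78 (adjusted p = 0.00441). The groups did not overlap in either genotype, and both calls held in all 10 fits without a mouse. Timp1, an inhibitor of matrix metalloproteinases, was at 2.05, 6.80 and 2.06 CPM in the sham + WT mice and at 37.5 and 16.2 CPM in the MCAO/R + WT mice (log2 fold change 3.61 ± 0.80, adjusted p = 0.0305). Lrg1-/- mice held it at 7.82, 4.95 and 7.39 CPM after sham and at 59.9, 85.1 and 41.9 CPM after MCAO/R (3.09 ± 0.47, adjusted p = 0.00613), and this call held without any mouse. The wild-type call of Timp1 was lost without sham + WT 1 (adjusted p = 0.159), sham + WT 3 (0.151) or MCAO/R + WT 1 (0.109).

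The receptors Il6st and Lifr fell in both genotypes. Il6st, which encodes gp130 itself, was at 281, 153 and 354 CPM in the sham + WT mice and at 121 and 107 CPM in the MCAO/R + WT mice, and at 215, 210 and 216 CPM and then 117, 104 and 98.4 CPM in the Lrg1-/- mice. The MCAO/R mice lay below every sham mouse. It fell by 1.59 ± 0.20 on the log2 scale in the wild type (adjusted p = 0.00274) and by 1.10 ± 0.16 in the Lrg1-/- mice (adjusted p = 0.00583), and both calls held in each fit without a mouse. Lifr, the partner of gp130 for leukaemia inhibitory factor, fell by 1.25 ± 0.29 (adjusted p = 0.0359) and by 1.80 ± 0.25 (adjusted p = 0.00446). The wild-type call of Lifr was lost in 5 of 10 fits without a mouse, with adjusted p-values of 0.0621 without sham + Lrg1-/- 1, 0.0654 without sham + WT 1, 0.246 without sham + WT 3, 0.239 without MCAO/R + WT 1 and 0.0799 without MCAO/R + WT 2. Socs3, a feedback inhibitor of the pathway, fell in the Lrg1-/- mice (-1.56 ± 0.32, adjusted p = 0.0169; 0.0811 without sham + Lrg1-/- 1 and 0.0512 without sham + Lrg1-/- 2), with a wild-type value of -1.14 ± 0.38 that was not called (adjusted p = 0.118).

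The promoters of 2 rising genes and of 2 leukocyte adhesion genes are shown because Stat3 binds sites of the form TTCNNNGAA, and because Lrg1 and Lcn2 rose after MCAO/R while Icam1 and Sele did not. Each is 250 bases before to 50 bases after the annotated start, from RefSeq on GRCm38.p6, 5′ to 3′ on the gene's strand, with matches to TTCNNNGAA in capitals. Lrg1 lies at chr17:56121897-56122196 (minus strand), Lcn2 at chr2:32387690-32387989 (minus), Icam1 at chr9:21015690-21015989 (plus) and Sele at chr1:164047984-164048283 (plus).
Lrg1: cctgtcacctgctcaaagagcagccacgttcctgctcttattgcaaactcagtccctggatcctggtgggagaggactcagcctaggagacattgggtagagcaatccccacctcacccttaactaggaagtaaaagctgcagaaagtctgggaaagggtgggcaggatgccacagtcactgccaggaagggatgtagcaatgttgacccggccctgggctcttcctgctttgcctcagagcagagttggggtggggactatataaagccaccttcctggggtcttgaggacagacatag
Lcn2: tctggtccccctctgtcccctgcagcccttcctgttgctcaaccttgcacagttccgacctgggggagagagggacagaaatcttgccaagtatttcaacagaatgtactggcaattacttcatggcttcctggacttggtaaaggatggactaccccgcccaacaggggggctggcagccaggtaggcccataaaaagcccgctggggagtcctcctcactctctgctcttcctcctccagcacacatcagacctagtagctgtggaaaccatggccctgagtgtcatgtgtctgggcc
Icam1: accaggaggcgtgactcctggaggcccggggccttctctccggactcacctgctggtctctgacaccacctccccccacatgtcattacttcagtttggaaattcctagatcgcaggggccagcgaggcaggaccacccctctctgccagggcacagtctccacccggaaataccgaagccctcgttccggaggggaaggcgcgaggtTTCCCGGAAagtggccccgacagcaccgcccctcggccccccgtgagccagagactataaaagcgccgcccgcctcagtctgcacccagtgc
Sele: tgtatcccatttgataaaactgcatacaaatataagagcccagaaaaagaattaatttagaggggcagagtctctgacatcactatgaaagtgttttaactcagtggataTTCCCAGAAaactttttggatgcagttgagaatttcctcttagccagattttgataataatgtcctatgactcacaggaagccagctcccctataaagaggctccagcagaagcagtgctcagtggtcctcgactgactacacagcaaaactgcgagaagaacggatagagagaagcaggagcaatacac

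The motif reads the same on both strands and was the only one searched. In Icam1 it begins at position -42 and in Sele at position -140 relative to the start. Lrg1, Lcn2, Serpina3n, Timp1, Selp and Ackr1 hold no match in this window. Of 32851 promoters of the same length, 2726 (8.30%) hold the motif.

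**Figure D3:**
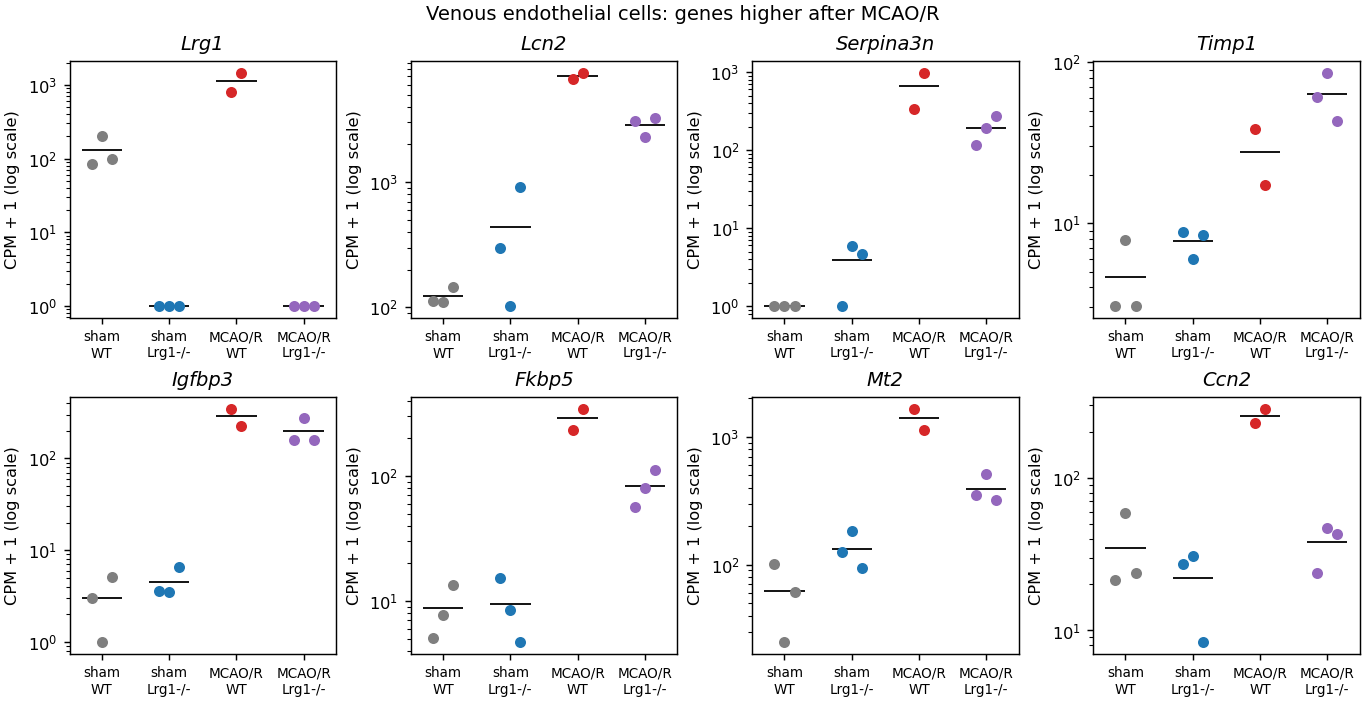
Level in venous cells (CPM + 1, log scale) of Lrg1, Lcn2, Serpina3n, Timp1, Igfbp3, Fkbp5, Mt2 and Ccn2 in each mouse (dots; lines are group means), for the 4 groups. Lcn2 lies between 102 and 906 CPM in the sham mice and between 2275 and 7477 CPM after MCAO/R, Lrg1 is at 0 in every Lrg1-/- mouse, and Ccn2 is highest in the 2 MCAO/R + WT mice.

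Over all genes, the response to MCAO/R comprised 498 called genes in the wild type, 194 higher and 304 lower, and 773 in the Lrg1-/- mice, 303 higher and 470 lower. In the wild type 98 were called without MCAO/R + WT 1, 125 without sham + WT 1, 161 without MCAO/R + WT 2, 204 without sham + WT 3 and 323 without sham + Lrg1-/- 1. For the Lrg1-/- mice the count was 140 without sham + Lrg1-/- 1, 176 without MCAO/R + Lrg1-/- 2, 329 without sham + Lrg1-/- 2, 398 without sham + Lrg1-/- 5 and 486 without MCAO/R + Lrg1-/- 5. Without regard to a test, 34.4% of genes were higher and 20.3% lower in each MCAO/R + WT mouse than in each sham + WT mouse of the fit, and 17.3% and 11.3% in the Lrg1-/- mice, so that groups that do not overlap were common. The largest rises and falls named below were ranked among called genes at 50 CPM or more in the higher group whose mice did not overlap, so that some genes with lower levels had larger fold changes. Igfbp3, which binds insulin-like growth factors, was among the genes with the largest rise in both. It was at 2.05, 0 and 4.11 CPM in the sham + WT mice and at 345 and 227 CPM in the MCAO/R + WT mice, and at 2.61, 2.48 and 5.55 CPM and then 158, 272 and 157 CPM in the Lrg1-/- mice. The MCAO/R mice stood far above the sham mice of both genotypes, with log2 fold changes of 6.41 ± 0.55 and 5.70 ± 0.44. Igfbp3 is 1 of the 6 fenestrated genes that capped the rule, so that its values are a description without a test and cells with this gene and 2 others of that list were left out, 8 in all.

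Chosen after their values were seen, Fkbp5, a co-chaperone that glucocorticoids induce, and Mt2, a metallothionein that binds zinc, rose in both genotypes. Fkbp5 was at 4.11, 6.80 and 12.3 CPM in the sham + WT mice and 233 and 343 CPM in the MCAO/R + WT mice (log2 fold change 5.01 ± 0.55, adjusted p = 0.00212), and at 14.3, 7.43 and 3.70 CPM and then 55.8, 79.7 and 111 CPM in the Lrg1-/- mice (3.06 ± 0.45, adjusted p = 0.00558). Mt2 rose by 4.0 ± 0.39 on the log2 scale in the wild type (adjusted p = 0.00112) and by 1.5 ± 0.29 in the Lrg1-/- mice (adjusted p = 0.0140; 0.0517 to 0.0676 without sham + Lrg1-/- 1, sham + Lrg1-/- 5 or MCAO/R + Lrg1-/- 2). After MCAO/R both genes were lower in the Lrg1-/- than in the WT mice (-1.69 ± 0.33, adjusted p = 0.0223, and -1.71 ± 0.30, adjusted p = 0.0166). These 2 calls were lost without MCAO/R + WT 2 (0.183 and 0.0873), that of Fkbp5 also without MCAO/R + Lrg1-/- 2 (0.0885) and that of Mt2 without MCAO/R + WT 1 (0.0766). The genotype difference in the response itself was not called for either gene (interaction adjusted p = 0.567 and 0.374).

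Phactr3, a regulator of actin and protein phosphatase 1, was at 0, 23.8 and 0 CPM in the sham + WT mice, the middle value being the mouse outside the fit, and at 147 and 310 CPM after MCAO/R. Pcdh11x, a protocadherin, was at 2.05, 20.4 and 2.06 CPM and then at 128 and 123 CPM (5.80 ± 0.57, adjusted p = 0.00112). The MCAO/R + WT mice lay above all sham mice for both genes, and both calls held without any mouse. Both genes were also present in capillary cells of the MCAO/R + WT mice, at 338 and 895 CPM for Phactr3 and at 150 and 379 CPM for Pcdh11x. Arhgap24, a GTPase-activating protein, was at 0, 37.4 and 0 CPM and then 106 and 52.8 CPM. Unc5c, a netrin receptor, and Tubb3, a tubulin of neurons, completed the 8 largest rises within these limits, with log2 fold changes of 6.14 ± 1.17 and 5.79 ± 1.04 (adjusted p = 0.0174 and 0.0131). The calls of Arhgap24, Unc5c and Tubb3 were lost without sham + WT 1 or sham + WT 3, with adjusted p-values of 0.0598 to 0.156, and that of Arhgap24 also without MCAO/R + WT 1 (0.105), sham + Lrg1-/- 1 (0.0576) or sham + Lrg1-/- 5 (0.0640). Of the 5 oligodendrocyte genes, Mal and Mbp were called higher in the same mice, against 1.93% of all genes. Mog, another of the 5, is a gene of the rule's exclusion. The call of Mbp was lost in 5 of 10 fits without a mouse, with an adjusted p of up to 0.170 without sham + WT 1. The 5 genes summed to 4992 and 4434 CPM, and their part in these rises was not tested.

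Spp1 was among the largest rises in the Lrg1-/- mice within the same limits. Spp1, osteopontin, was at 1.30, 0 and 0 CPM after sham and at 413, 3339 and 1092 CPM after MCAO/R, and it was called (adjusted p = 0.00929; 0.0693 without sham + Lrg1-/- 1). Spp1 was at 0 in the 3 wild-type sham mice and at 248 and 12.6 CPM after MCAO/R, which was not called (adjusted p = 0.123). Other genes so ranked were Tgfbi, AA467197, Ms4a6d, Ccl9 and the complement receptor C5ar1, with log2 fold changes of 4.34 to 6.96. Without sham + Lrg1-/- 1 their adjusted p-values were 0.0621 to 0.176, and those of Tgfbi, Ms4a6d, Ccl9 and C5ar1 were 0.0700 to 0.130 without sham + Lrg1-/- 2, sham + Lrg1-/- 5 or MCAO/R + Lrg1-/- 2. Tgfbi and Ccl9 were also lost without sham + WT 1 or sham + WT 3 (0.0553 to 0.0565), and Tgfbi without MCAO/R + Lrg1-/- 5 (0.0709). In the same venous cells, 7 microglial genes summed to 1899, 2860 and 5410 CPM in the MCAO/R + Lrg1-/- mice and to 676 to 1281 CPM in the sham + Lrg1-/- mice. C1qc and C1qb were called higher among them, against 3.02% of all genes, while P2ry12 and Tmem119 are genes of the rule's exclusion. Both calls were lost without sham + Lrg1-/- 1 (adjusted p = 0.0991 and 0.136) and in 3 and 6 further fits without a mouse. The 4 neutrophil genes summed to 51.6, 1135 and 2417 CPM against 9.90 to 93.8 CPM. The part of the microglial and neutrophil genes in these rises was not tested.

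Of the 11 venous genes that the rule did not use, Nrp2 fell in both genotypes. It was at 546, 609 and 666 CPM in the sham + WT mice and at 84.3 and 105 CPM in the MCAO/R + WT mice, and at 332, 503 and 194 CPM and then 103, 88.0 and 143 CPM in the Lrg1-/- mice. No MCAO/R mouse overlapped with a sham mouse. The log2 fold changes were -2.79 ± 0.37 (adjusted p = 0.00392), which held without any mouse, and -1.71 ± 0.30 (adjusted p = 0.00938), with adjusted p-values of 0.0528 without sham + Lrg1-/- 1 and 0.0549 without MCAO/R + Lrg1-/- 2. With at least 2 Ackr1 UMIs required, Nrp2 stayed at 679 to 860 CPM in the sham + WT mice and at 108 and 135 CPM in the MCAO/R + WT mice. Nr2f2, at 359, 439 and 508 CPM and then 251 and 290 CPM in the wild type, had a log2 fold change of -0.79 ± 0.33 that was not called (adjusted p = 0.207), and -0.53 ± 0.27 in the Lrg1-/- mice (adjusted p = 0.253). The median over the 11 genes was -0.79 in both genotypes. The list's 2 rises in the wild type were Lrg1 and Lcn2 and its fall was Nrp2, and in the Lrg1-/- mice Lcn2 rose and 3 genes fell. Over all genes 1.93% rose and 3.03% fell in the wild type, and 3.02% and 4.68% in the Lrg1-/- mice.

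Those other 2 falls in the Lrg1-/- mice were the ligands of leukocyte integrins. Icam1 was at 1499, 941 and 1333 CPM after sham and at 452, 385 and 726 CPM after MCAO/R, and Vcam1 at 812, 493 and 799 CPM and then at 427, 230 and 247 CPM. For both genes each MCAO/R mouse was below each sham mouse. Log2 fold changes were -1.38 ± 0.30 (adjusted p = 0.021) and -1.33 ± 0.33 (adjusted p = 0.0359). Wild-type Icam1 was at 1618, 1725 and 1505 CPM and then 666 and 1074 CPM (-0.96 ± 0.36, adjusted p = 0.156) and Vcam1 at 1033, 908 and 876 CPM and then 344 and 701 CPM (-0.99 ± 0.40, adjusted p = 0.193), which were not called. The Icam1 call was lost without sham + Lrg1-/- 1 (adjusted p = 0.0877), sham + Lrg1-/- 5 (0.0650) or MCAO/R + Lrg1-/- 2 (0.0912). That of Vcam1 was lost in 6 of 10 fits without a mouse, with adjusted p-values of 0.0540 to 0.138 without sham + WT 1, sham + WT 3, sham + Lrg1-/- 1, sham + Lrg1-/- 5, MCAO/R + Lrg1-/- 2 or MCAO/R + Lrg1-/- 5.

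The other adhesion genes were not called. Of 11 tested members that the rule did not use, 0 were called in the wild type, where 1.93% of all genes rose and 3.03% fell, and 2 fell in the Lrg1-/- mice, where 4.68% did. Their medians were -0.71 and -0.51, beside 0.01 and -0.004 over all genes. Selp, the P-selectin of venules, was at 308, 582 and 80.2 CPM in the sham + WT mice and 56.4 and 3.65 CPM in the MCAO/R + WT mice (-2.73 ± 0.85, adjusted p = 0.0953). Lrg1-/- mice held it at 109, 74.3 and 131 CPM and then 39.2, 39.8 and 27.2 CPM (-1.65 ± 0.72, adjusted p = 0.177), so that every MCAO/R mouse was below every sham mouse although neither change was called. Of all genes in the fit, 20.3% in the wild type and 11.3% in the Lrg1-/- mice were lower without overlap. With at least 2 Ackr1 UMIs required, the wild-type groups overlapped, with Selp at 420, 534 and 93.3 CPM and then 124 and 6.10 CPM. Sele, the E-selectin, was at 117, 211 and 8.23 CPM and then 55.7 and 34.1 CPM (-0.59 ± 0.81, adjusted p = 0.75), so that the sham mice spanned the MCAO/R mice. Icam2 and Esam, adhesion molecules of the endothelial surface and its junctions, had wild-type log2 fold changes of -0.71 ± 0.29 and 0.01 ± 0.23 with adjusted p-values of 0.194 and 0.99. Madcam1, the gut-homing ligand, was nearly absent, with at most 1.03 CPM.

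**Figure D4:**
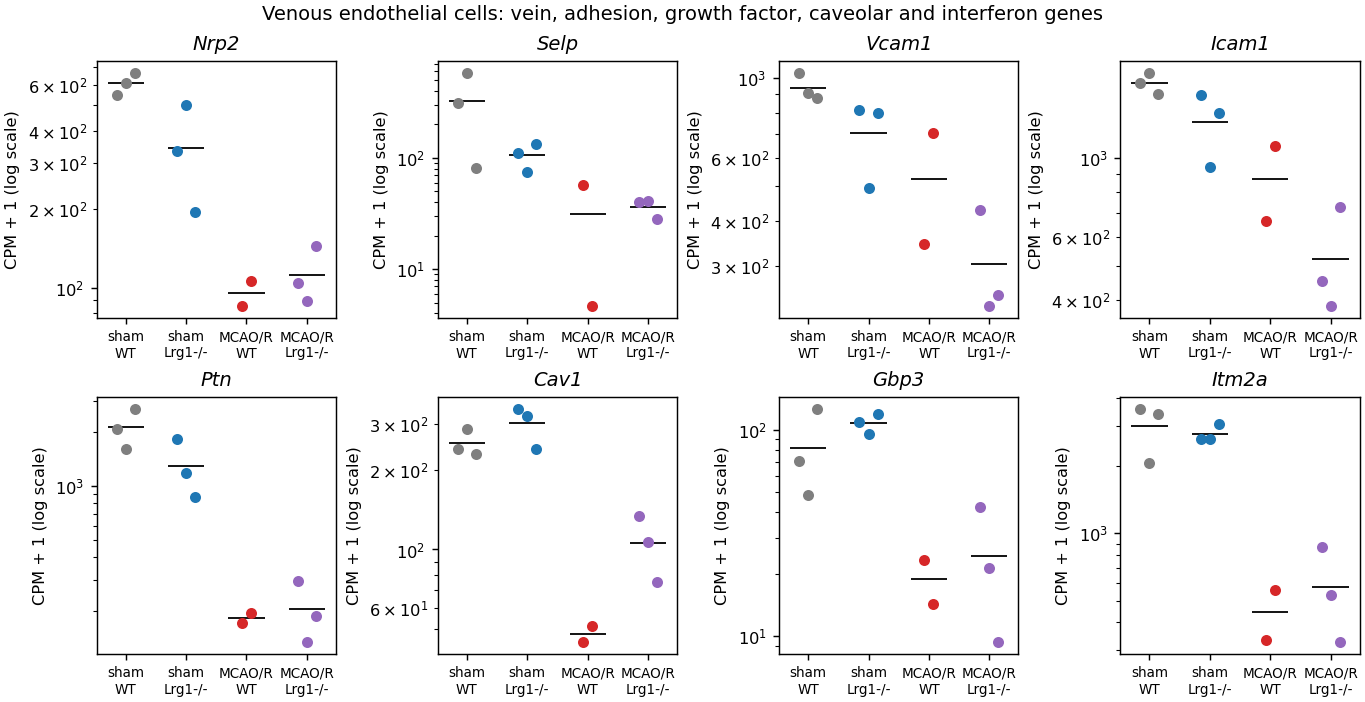
Level in venous cells (CPM + 1, log scale) of Nrp2, Selp, Vcam1, Icam1, Ptn, Cav1, Gbp3 and Itm2a in each mouse (dots; lines are group means), for the 4 groups. Nrp2, Selp, Ptn, Cav1 and Itm2a are lower in each MCAO/R mouse than in each sham mouse; Selp lies between 74.3 and 582 CPM in the sham mice and between 3.65 and 56.4 CPM after MCAO/R.

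Chemokines, which recruit leukocytes at venules, had no common direction. In the wild type Cx3cl1, a chemokine tethered to the membrane, fell from 86.3, 102 and 111 CPM to 30.0 and 44.2 CPM (-1.54 ± 0.37, adjusted p = 0.0407). It was the only called member of 11 tested, against 3.03% of all genes that fell and 1.93% that rose, and its call was lost in 6 of 10 fits without a mouse, with adjusted p-values of 0.0606 to 0.236 without any single WT mouse of the fit, sham + Lrg1-/- 1 or sham + Lrg1-/- 5. Of the Lrg1-/- response the only called member, against 3.02% of all genes that rose and 4.68% that fell, was Il33, an alarmin, which was at 1.30, 2.48 and 1.85 CPM after sham and at 34.1, 51.4 and 46.1 CPM after MCAO/R (4.53 ± 1.04, adjusted p = 0.03). The Il33 groups did not overlap, but its adjusted p was 0.0502 to 0.126 without any single one of sham + Lrg1-/- 1, 2 and 5 and MCAO/R + Lrg1-/- 2 and 5. Ccl2, which attracts monocytes, was at 0, 3.40 and 2.06 CPM in the sham + WT mice and at 156 and 3.25 CPM in the MCAO/R + WT mice, which disagreed with each other (adjusted p = 0.15). Cxcl1, at 322, 105 and 181 CPM and then 294 and 355 CPM, also overlapped between the groups (adjusted p = 0.767).

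Among 16 tested genes of interleukin-1, TNF and NF-kB signalling that the rule did not use, Il1rap, the co-receptor of Il1r1, rose in both genotypes. It was at 24.6, 27.2 and 22.6 CPM and then 66.6 and 91.3 CPM in the wild type (1.62 ± 0.33, adjusted p = 0.0216) and at 11.7, 24.8 and 12.9 CPM and then 50.6, 42.6 and 55.5 CPM in the Lrg1-/- mice (1.55 ± 0.29, adjusted p = 0.012). The groups did not overlap. Irf1, a transcription factor that interferon and TNF induce, fell from 277, 401 and 487 CPM to 142 and 158 CPM (-1.46 ± 0.32, adjusted p = 0.0285) and from 436, 270 and 407 CPM to 97.1, 90.2 and 123 CPM (-1.96 ± 0.27, adjusted p = 0.00446), and the second call held without any mouse. In all, 2 members rose and 1 fell in the wild type, against 1.93% and 3.03% of all genes, and 1 rose and 3 fell in the Lrg1-/- mice, against 3.02% and 4.68%. In the wild type Sod2, the mitochondrial superoxide dismutase, rose by 1.29 ± 0.28 (adjusted p = 0.0299), and the early response gene Ier3 fell in the Lrg1-/- mice (-1.78 ± 0.23, adjusted p = 0.00377). The wild-type calls rested on single mice. Without sham + WT 3 the adjusted p was 0.111 for Il1rap, 0.194 for Irf1 and 0.166 for Sod2. Without sham + WT 1 it was 0.104 for Il1rap and 0.0852 for Sod2, without MCAO/R + WT 1 0.160 for Irf1 and 0.181 for Sod2, and without MCAO/R + WT 2 0.0916 for Il1rap and 0.100 for Irf1. For the Lrg1-/- mice Il1rap had an adjusted p of 0.0702 without sham + Lrg1-/- 1.

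Among interferon genes, the guanylate-binding protein Gbp3 fell and the membrane protein Ifitm1 rose. In each genotype 2 of 20 tested members rose, and 2 fell in the wild type and 4 in the Lrg1-/- mice, with a median of -0.79 in both. The shares over all genes were 1.93% and 3.02% for rises and 3.03% and 4.68% for falls. Gbp3 was at 69.8, 47.6 and 125 CPM and then 22.4 and 13.4 CPM in the wild type (-2.52 ± 0.51, adjusted p = 0.0217) and at 108, 94.1 and 118 CPM and then 41.3, 20.5 and 8.38 CPM in the Lrg1-/- mice (-2.33 ± 0.43, adjusted p = 0.0111). Ifitm1 was at 61.6, 57.8 and 53.5 CPM and then 303 and 340 CPM (2.37 ± 0.45, adjusted p = 0.0175) and at 155, 42.1 and 116 CPM and then 319, 297 and 373 CPM (1.5 ± 0.34, adjusted p = 0.0267). Neither gene overlapped between sham and MCAO/R within a genotype. Without any single WT mouse of the fit the adjusted p of Gbp3 was 0.0514 to 0.149. That of Ifitm1 was 0.0528 to 0.105 without sham + WT 1, sham + WT 3 or MCAO/R + WT 2. For the Lrg1-/- mice Gbp3 was lost without sham + Lrg1-/- 1 (0.0578) or MCAO/R + Lrg1-/- 2 (0.0639), and Ifitm1 without sham + Lrg1-/- 5 (0.0669) or MCAO/R + Lrg1-/- 2 (0.0700).

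Of 13 genes of antigen presentation, 3 fell in the wild type and 2 in the Lrg1-/- mice, against 3.03% and 4.68% of all genes. H2-K1, a class I heavy chain, was at 990, 1027 and 1357 CPM and then 562 and 445 CPM in the wild type (-1.33 ± 0.25, adjusted p = 0.0174). H2-K1 in the Lrg1-/- mice was at 1707, 1515 and 1789 CPM and then 1254, 1066 and 878 CPM (-0.74 ± 0.20, adjusted p = 0.0498). The groups did not overlap in either genotype, and after MCAO/R the Lrg1-/- mice were above the WT mice (1.20 ± 0.24, adjusted p = 0.0223). The immunoproteasome subunits Psmb8 and Psmb9 fell in the wild type (-1.59 ± 0.41 and -2.29 ± 0.49, adjusted p = 0.0492 and 0.0258). These calls were not stable to single mice. The wild-type adjusted p of H2-K1 was 0.114 without sham + WT 3, 0.0677 without MCAO/R + WT 1 and 0.109 without MCAO/R + WT 2, and the calls of Psmb8 and Psmb9 were lost in 7 and 4 of 10 fits without a mouse, with adjusted p-values of up to 0.363 and 0.161, both without sham + WT 3. In the Lrg1-/- mice H2-K1 was lost in 9 of 10 fits without a mouse (0.0594 to 0.15), and only the fit without MCAO/R + Lrg1-/- 1 kept it. For the genotype difference of H2-K1 the adjusted p was 0.0778 without MCAO/R + Lrg1-/- 2, 0.0541 without MCAO/R + WT 1 and 0.215 without MCAO/R + WT 2.

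Of 12 tested barrier genes that the rule did not use, 1 rose and 1 fell in the wild type, against 1.93% and 3.03% of all genes, and 5 fell in the Lrg1-/- mice, against 4.68%, with medians of -0.53 and -0.75. Cav1, which forms caveolae, was at 240, 286 and 230 CPM in the sham + WT mice and at 43.5 and 50.3 CPM in the MCAO/R + WT mice, and at 341, 322 and 240 CPM and then 133, 106 and 74.4 CPM in the Lrg1-/- mice. It did not overlap in either genotype. Cav1 fell by 2.45 ± 0.28 (adjusted p = 0.00224) and by 1.62 ± 0.22 (adjusted p = 0.00446) on the log2 scale, without loss of the call in any fit without a mouse. Slc2a1, the glucose transporter of the blood-brain barrier, rose in the wild type from 1123, 1004 and 1372 CPM to 2826 and 4167 CPM (1.37 ± 0.27, adjusted p = 0.0182), and in the Lrg1-/- mice it was at 1100, 1018 and 1462 CPM and then 1700, 1767 and 1586 CPM (0.40 ± 0.21, adjusted p = 0.269). Without sham + WT 1, sham + WT 3 or MCAO/R + WT 2 the wild-type adjusted p of Slc2a1 was 0.130, 0.0665 and 0.0920.

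The scaffold of tight junctions Tjp1 and the efflux pump Abcb1a (P-glycoprotein) fell in the Lrg1-/- mice. Tjp1 was at 925, 1298 and 849 CPM and then 490, 409 and 468 CPM (-1.25 ± 0.19, adjusted p = 0.00597), and Abcb1a at 1036, 1206 and 1076 CPM and then 603, 351 and 365 CPM (-1.42 ± 0.23, adjusted p = 0.00773). Both were lower in each MCAO/R mouse than in each sham mouse and kept the call without any mouse. The efflux pump Abcg2 fell by 0.97 ± 0.18 (adjusted p = 0.0124; 0.0676 without sham + Lrg1-/- 1 and 0.0592 without MCAO/R + Lrg1-/- 2). These 3 genes had wild-type log2 fold changes of -0.44 ± 0.22, -0.64 ± 0.27 and -0.46 ± 0.22, none of which was called (adjusted p = 0.304, 0.212 and 0.274). Ocln, the occludin of brain endothelium, had a wild-type value of -0.73 ± 0.21 (adjusted p = 0.0763). The claudin Cldn5, an endothelial gene of the rule and so given as a description, was at 3276, 3106 and 3934 CPM and then 2609.6 and 2458 CPM in the wild type.

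Ptn and Pltp, a pair of secreted proteins, fell in both genotypes. Ptn, pleiotrophin, was at 2074, 1609 and 2698 CPM in the sham + WT mice and at 171 and 194 CPM in the MCAO/R + WT mice (-3.82 ± 0.44, adjusted p = 0.00224), and at 1841, 1179 and 863 CPM and then 295, 133 and 187 CPM in the Lrg1-/- mice (-2.77 ± 0.35, adjusted p = 0.00366). Pltp, the phospholipid transfer protein, was at 2284, 1510 and 2268 CPM and then 152 and 248 CPM, and at 2112, 2147 and 2265 CPM and then 573, 269 and 192 CPM. Every MCAO/R mouse was below every sham mouse for both genes. Pltp fell by 3.63 ± 0.46 (adjusted p = 0.00278) and by 2.76 ± 0.36 (adjusted p = 0.00406). The calls of Ptn and, in the Lrg1-/- mice, of Pltp held without any mouse. So did the Lrg1-/- calls of Ltbp4, which anchors latent TGF-beta (-2.68 ± 0.24, adjusted p = 0.000847), the organic anion transporter Slc22a8 (-2.79 ± 0.46, adjusted p = 0.00867), the death ligand Tnfsf10 (-2.57 ± 0.42, adjusted p = 0.00823) and Gbp5, a guanylate-binding protein (-2.53 ± 0.40, adjusted p = 0.00762). The remaining 2 of the 8 steepest falls of these mice at 50 CPM or more and without overlap were Fxyd6, a regulator of the sodium pump, and the transcription factor Dach2 (-3.02 ± 0.55 and -2.99 ± 0.64, adjusted p = 0.0104 and 0.0206). They were lost without sham + Lrg1-/- 1 (0.0646 and 0.0553) or MCAO/R + Lrg1-/- 2 (0.0625 and 0.106), and Dach2 also without sham + Lrg1-/- 2 (0.0619). Itm2a, named after its values were seen, was at 3594, 2058 and 3413 CPM in the sham + WT mice and 332 and 556 CPM in the MCAO/R + WT mice (-3.10 ± 0.41, adjusted p = 0.00392), and in capillary cells it was at 3325 to 3603 CPM and then 446 and 529 CPM.

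In the wild type the rest of the 8 steepest falls within those limits were Col6a6, a collagen chain, Unc13c, a priming factor of secretory vesicles, Adh1, an alcohol dehydrogenase, Hacd4, an enzyme of fatty acid elongation, Tll1, a metalloproteinase, Lmntd1 and Frem2, a matrix protein. Unc13c was at 57.5, 51.0 and 59.6 CPM and then 1.10 and 2.03 CPM (-5.43 ± 0.46, adjusted p = 0.000772), and Frem2 at 69.8, 34.0 and 53.5 CPM and then 3.45 and 4.87 CPM (-4.04 ± 0.44, adjusted p = 0.00212). Both fell in the Lrg1-/- mice too (-2.86 ± 0.37, adjusted p = 0.00406, and -3.09 ± 0.38, adjusted p = 0.0035). The wild-type calls of Unc13c, Frem2, Hacd4 and Ptn held without any mouse. Those of Col6a6, Adh1, Tll1 and Lmntd1 were lost without MCAO/R + WT 1 (adjusted p = 0.0763, 0.0999, 0.0670 and 0.0970), those of Tll1 and Lmntd1 also without sham + WT 1 (0.0601 and 0.0616), and that of Adh1 also without sham + WT 3 (0.0594).

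TGF-beta and BMP signalling is the pathway that Lrg1 is known to modify. Of 20 tested genes, 1 rose and 2 fell in the wild type, where 1.93% and 3.03% of all genes did, and 5 fell in the Lrg1-/- mice, where 4.68% did, with medians of -0.02 and -0.41. Ccn2, a matricellular target of TGF-beta and Yap, was at 20.5, 57.8 and 22.6 CPM in the sham + WT mice and at 227 and 282 CPM in the MCAO/R + WT mice. In the Lrg1-/- mice it was at 26.1, 29.7 and 7.39 CPM after sham and at 22.7, 46.1 and 41.9 CPM after MCAO/R. The 2 MCAO/R + WT mice stood above all other mice. The wild-type change was 3.44 ± 0.46 (adjusted p = 0.00394), held without any mouse, and the Lrg1-/- change was 0.77 ± 0.39 (adjusted p = 0.247).

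The inhibitors of differentiation Id1 and Id3, which BMP signalling induces, fell in the Lrg1-/- mice. Id1 was at 1456, 1283 and 1368 CPM after sham and at 620, 684 and 350 CPM after MCAO/R (-1.40 ± 0.24, adjusted p = 0.00933), against 686, 840 and 892 CPM and then 891 and 984 CPM in the wild type (0.14 ± 0.29, adjusted p = 0.854). Among sham mice the Lrg1-/- mice lay above the WT mice for Id1, as they did for 13.0% of all genes in the fit. After MCAO/R they lay below the WT mice, as for 29.7% of all genes, and neither genotype difference of Id1 was called. The call of Id1 had an adjusted p of 0.0519 and that of Id3 one of 0.0553 without sham + Lrg1-/- 1. Smad7, the inhibitory Smad, and the receptor Bmpr2 also fell (-1.09 ± 0.25 and -0.61 ± 0.16, adjusted p = 0.025 and 0.0418), but these calls were lost in 6 and 10 of 10 fits without a mouse, with adjusted p-values of up to 0.0932 without sham + Lrg1-/- 2 and up to 0.132 without MCAO/R + Lrg1-/- 5. The TGF-beta receptors Tgfbr1, Tgfbr2, Acvrl1 and Eng had wild-type values between -0.22 and 0.26 on the log2 scale, none of them called. Tgfbr3, a further receptor, was called lower in the wild type (-0.98) and in the Lrg1-/- mice (-0.87), kept in 4 and 5 of 10 fits without a mouse. Bambi was called lower in the wild type (-1.41), kept in 4 of those fits.

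Regulators of arteriovenous fate and of the response to blood flow fell in part. Aplnr, the apelin receptor of veins, was at 20.5, 13.6 and 35.0 CPM in the sham + WT mice and 0.628 and 1.62 CPM in the MCAO/R + WT mice (-4.86 ± 0.86, adjusted p = 0.0125), and its call was lost without any single WT mouse of the fit (0.0541 to 0.178). In the Lrg1-/- mice Nrp2 and 4 transcription factors were the 5 called of 16 tested members, with 0 rising, against 4.68% and 3.02% of all genes, and a median of -0.65 (-0.42 in the wild type). Klf4 was at 1725, 2100 and 2019 CPM and then 892, 969 and 945 CPM (-1.14 ± 0.19, adjusted p = 0.008), and it kept the call without any mouse. Klf2 was at 3968, 3964 and 4293 CPM and then 2448, 2680 and 2508 CPM (-0.77 ± 0.16, adjusted p = 0.0205). Both genes respond to shear stress, and their MCAO/R and sham values did not overlap. Sox17 and Sox7 fell by 1.22 ± 0.21 and 1.30 ± 0.23 (adjusted p = 0.00933 and 0.00974). Without sham + Lrg1-/- 1 the adjusted p of Klf2 was 0.0628 and that of Sox17 0.0595. Without MCAO/R + Lrg1-/- 2 that of Klf2 was 0.0755 and that of Sox7 0.0549, and Klf2 was also lost without sham + Lrg1-/- 5 (0.0730) or MCAO/R + Lrg1-/- 5 (0.0577). Of 9 tested arterial marker genes, Mgp (2.25) and Fbln5 (4.57) rose and 0 fell in the Lrg1-/- mice, against 3.02% and 4.68% of all genes, with a median of 2.07. Arterial markers summed to 135 to 238 CPM after sham and 369 to 782 CPM after MCAO/R in these mice. In the wild type the sums overlapped, at 259 to 480 and 313 to 399 CPM. Vegfc was the only called arterial marker in the wild type and fell (-1.59), against 3.03% of all genes. The median of the 9 was 0.52 there.

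Of 7 tested genes of angiogenesis and the cell cycle that the rule did not use, Tek, Tie1 and Kdr fell in the wild type, and Tek and Tie1 fell and Apln rose in the Lrg1-/- mice. Over all genes 1.93% rose and 3.03% fell in the wild type, and 3.02% and 4.68% in the Lrg1-/- mice. Tek, the angiopoietin receptor, was at 431, 357 and 547 CPM and then 166 and 215 CPM in the wild type (-1.48 ± 0.29, adjusted p = 0.0186) and at 348, 438 and 344 CPM and then 245, 146 and 134 CPM in the Lrg1-/- mice (-1.20 ± 0.24, adjusted p = 0.0157). Its partner Tie1 fell by 1.35 ± 0.25 and 1.13 ± 0.21 (adjusted p = 0.0162 and 0.0124), and Kdr, the main receptor of vascular endothelial growth factor, by 2.20 ± 0.40 in the wild type (adjusted p = 0.0135). Apln, the ligand of Aplnr, was at 0, 0 and 1.85 CPM in the sham + Lrg1-/- mice and at 22.7, 41.1 and 18.9 CPM in the MCAO/R + Lrg1-/- mice (5.44 ± 0.95, adjusted p = 0.00933). The groups of Apln did not overlap. The wild-type calls of Tek, Tie1 and Kdr were all lost without sham + WT 3, MCAO/R + WT 1 or MCAO/R + WT 2, with adjusted p-values of 0.0586 to 0.153. Tek and Tie1 were lost without sham + WT 1 as well (both 0.0579). For the Lrg1-/- mice the calls of Tek, Tie1 and Apln were lost without sham + Lrg1-/- 1 (0.0666, 0.0578 and 0.0591) or MCAO/R + Lrg1-/- 2 (0.0770, 0.0650 and 0.0584), and Tek also without sham + Lrg1-/- 2 (0.0572).

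Coagulation and fibrinolysis genes had 1 called member in each genotype, of 6 tested that the rule did not use. It rose in the wild type, as 1.93% of all genes did, and fell in the Lrg1-/- mice, as 4.68% did. Plaur, the urokinase receptor, rose in the wild type from 115, 74.8 and 107 CPM to 412 and 215 CPM (1.39 ± 0.35, adjusted p = 0.0463), and Thbd, thrombomodulin, fell in the Lrg1-/- mice from 241, 265 and 124 CPM to 89.8, 86.0 and 55.5 CPM (-1.52 ± 0.28, adjusted p = 0.0111). Neither overlapped between its groups. The Plaur call was lost in 6 of 10 fits without a mouse (0.0547 to 0.268, without any single sham mouse of the fit or without MCAO/R + WT 1), and that of Thbd without sham + Lrg1-/- 1 (0.0693). Of 7 prostaglandin genes 0 were called in the wild type and 1 rose in the Lrg1-/- mice, against 3.02% of all genes. This was Alox5ap, which activates leukotriene synthesis in leukocytes and went from 11.7, 19.8 and 11.1 CPM to 24.8, 113 and 145 CPM (2.71 ± 0.73, adjusted p = 0.0458; 0.0635 to 0.154 in 7 of 10 fits without a mouse, the highest without sham + Lrg1-/- 1). Ptgs2, one of the genes highest in venous against capillary cells, was at 462, 449 and 605 CPM and then 316 and 385 CPM in the wild type (-0.72 ± 0.33, adjusted p = 0.252).

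Immediate early genes, which respond fast to stimuli and to tissue dissociation, fell in part after MCAO/R. In the Lrg1-/- mice 11 of 14 fell and 0 rose (median -1.0), against 4.68% and 3.02% of all genes, and in the wild type 4 fell and 0 rose (median -0.76), against 3.03% and 1.93%. Jun was at 5483, 5235 and 5657 CPM in the sham + Lrg1-/- mice and at 2862, 2105 and 2415 CPM in the MCAO/R + Lrg1-/- mice (-1.24 ± 0.20, adjusted p = 0.00818). Egr1 was at 3469, 3217 and 2804 CPM and then 1378, 1028 and 1721 CPM (-1.29 ± 0.21, adjusted p = 0.00818). The MCAO/R mice were below the sham mice for both genes. In the wild type Hspa1a, an inducible heat shock protein, was at 633, 1303 and 1086 CPM and then 172 and 202 CPM (-2.31 ± 0.32, adjusted p = 0.00474). The calls of Jun, Junb, Egr1 and Atf3 in the Lrg1-/- mice and of Hspa1a in the wild type held without any mouse. The other 7 calls in the Lrg1-/- mice and the wild-type calls of Hspa1b, Nr4a1 and Atf3 did not, with adjusted p-values of up to 0.153 without MCAO/R + Lrg1-/- 2 for Ier2 and up to 0.213 without MCAO/R + WT 1 for Atf3.

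The comparison of genotypes after MCAO/R asks how the venous cells of mice without Lrg1 differ from those of wild-type mice once the brain has been injured. It called 493 genes, 297 higher (2.96%) and 196 lower (1.95%) in the Lrg1-/- mice. Without MCAO/R + WT 2 the count was 3, without MCAO/R + Lrg1-/- 2 it was 74, without MCAO/R + WT 1 it was 202, without sham + Lrg1-/- 5 it was 303, and without MCAO/R + Lrg1-/- 5 it was 752. Without both Xist libraries 11 were called, 9 higher and 2 lower. Among venous cells with no gene of other cell types 34 were called, 7 higher and 27 lower, so that the split turned towards lower calls. Of all genes, 16.8% were higher and 29.7% lower in each Lrg1-/- mouse than in each WT mouse, called or not. Ccn2 was lower in the Lrg1-/- mice, at 22.7, 46.1 and 41.9 CPM against 227 and 282 CPM (-2.62 ± 0.33, adjusted p = 0.00676; 0.0785 without MCAO/R + WT 2), and the groups did not overlap. Tjp1 was lower, at 490, 409 and 468 CPM against 957 and 1180 CPM (-1.12 ± 0.20, adjusted p = 0.0186). Slco1a4, an organic anion transporter among the endothelial genes of the rule and so given as a description, was at 845, 594 and 763 CPM against 1449.8 and 2470.4 CPM. Cav1 was higher, at 133, 106 and 74.4 CPM against 43.5 and 50.3 CPM (1.28 ± 0.25, adjusted p = 0.0229). Of 12 tested barrier genes that the rule did not use, Tjp1 and Slc2a1 were lower and Cav1 higher. Plat, the tissue plasminogen activator, was at 263, 325 and 323 CPM against 881 and 683 CPM (-1.25 ± 0.25, adjusted p = 0.0238). Without MCAO/R + WT 2 the adjusted p was 0.164 for Tjp1, 0.160 for Cav1 and 0.120 for Plat. Without MCAO/R + Lrg1-/- 2 it was 0.0852, 0.0862 and 0.0862, and without MCAO/R + WT 1 it was 0.131 for Cav1 and 0.118 for Plat. The Slc2a1 call was kept in 2 of 10 fits without a mouse, with an adjusted p of up to 0.351 without MCAO/R + WT 2.

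Over all genes 2.96% were higher and 1.95% lower in the Lrg1-/- mice. Lrg1 was the only called member of 16 in the gp130 list, and of 11 adhesion genes that the rule did not use, 11 chemokine and 20 interferon genes 0 were called. Lcn2, at 3055, 2275 and 3254 CPM against 6646 and 7477 CPM, did not overlap but was not called (-1.19 ± 0.59, adjusted p = 0.247). Serpina3n, at 117, 188 and 270 CPM against 332 and 980 CPM, had a log2 difference of -1.65 ± 0.46 (adjusted p = 0.064). Il1r1, a gene of the rule and so given as a description, was at 393, 171 and 371 CPM against 777 and 1694 CPM. Ackr1, likewise, was at 1120.5, 839 and 834 CPM in the MCAO/R + Lrg1-/- mice and at 398 and 256 CPM in the MCAO/R + WT mice, and at 333.5, 104 and 369.7 CPM and at 209, 163 and 150.1 CPM in the sham + Lrg1-/- and sham + WT mice. Vwf was at 859, 577 and 992 CPM against 532 and 956 CPM, and Slc38a5 at 306, 127 and 176 CPM against 31.7 and 92.5 CPM.

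Beside Lrg1 itself, genes of other cell types were among the largest differences between the genotypes. Ttr, the transthyretin that choroid plexus secretes, was at 29634, 11587 and 6045 CPM in the MCAO/R + Lrg1-/- mice and at 249 and 73.0 CPM in the MCAO/R + WT mice (6.71 ± 0.97, adjusted p = 0.0103). Prlr, Htr2c, Folr1 and Ecrg4, which choroid plexus expresses too, had log2 differences of 5.92 to 6.91. Kcnj13, a choroid plexus gene of the rule's exclusion and so given without a test, had a log2 difference of 7.72. Ttr UMIs were in at least 54.1% of microglia of every library, so that its RNA was not confined to the cells that make it. Arg1, arginase of myeloid cells, was at 2.07, 105 and 118 CPM against 0.314 and 0.406 CPM (7.76 ± 1.44, adjusted p = 0.0217), and S100a4 at 9.29, 169 and 74.4 CPM against 5.18 and 5.68 CPM. The calls of these 7 tested genes were all lost without MCAO/R + WT 2 (adjusted p = 0.107 to 0.187), and those of Arg1, Prlr, Htr2c and S100a4 also without MCAO/R + WT 1 (0.0961 to 0.142). S100a4 was lost without sham + Lrg1-/- 5 too (0.0531) and without MCAO/R + Lrg1-/- 2 (0.125). Of the choroid plexus list, the 4 genes that the rule did not use (Ttr, Folr1, Enpp2 and Clic6) were all called higher, against 2.96% of all genes. Each of these calls was lost without MCAO/R + WT 2 (0.107 to 0.160). Of the 5 red cell genes 1 was called higher. The part of the choroid plexus and red cell genes in the other differences was not tested.

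On the other side Doc2b, a calcium sensor of secretion, was at 6.20, 7.77 and 15.7 CPM in the MCAO/R + Lrg1-/- mice and at 121 and 226 CPM in the MCAO/R + WT mice (-4.12 ± 0.37, adjusted p = 0.00128). Pcdh11x was at 9.29, 12.9 and 19.9 CPM against 128 and 123 CPM (-3.08 ± 0.30, adjusted p = 0.0018). Neither overlapped, and with Lrg1 they were the named genes that kept this call in all 10 fits without a mouse. Phactr3 was at 9.29, 8.50 and 25.1 CPM against 147 and 310 CPM (-4.07 ± 0.55, adjusted p = 0.0103; 0.107 without MCAO/R + WT 2). The phosphatase Ptprz1 of glia was also among the largest, with a log2 difference of -2.61 (adjusted p = 0.0128; 0.120 without MCAO/R + WT 2). The myelin gene Mog, a gene of the rule's exclusion and so given as a description, was at 5.16, 20.3 and 36.7 CPM against 176 and 112.0 CPM.

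**Figure D5:**
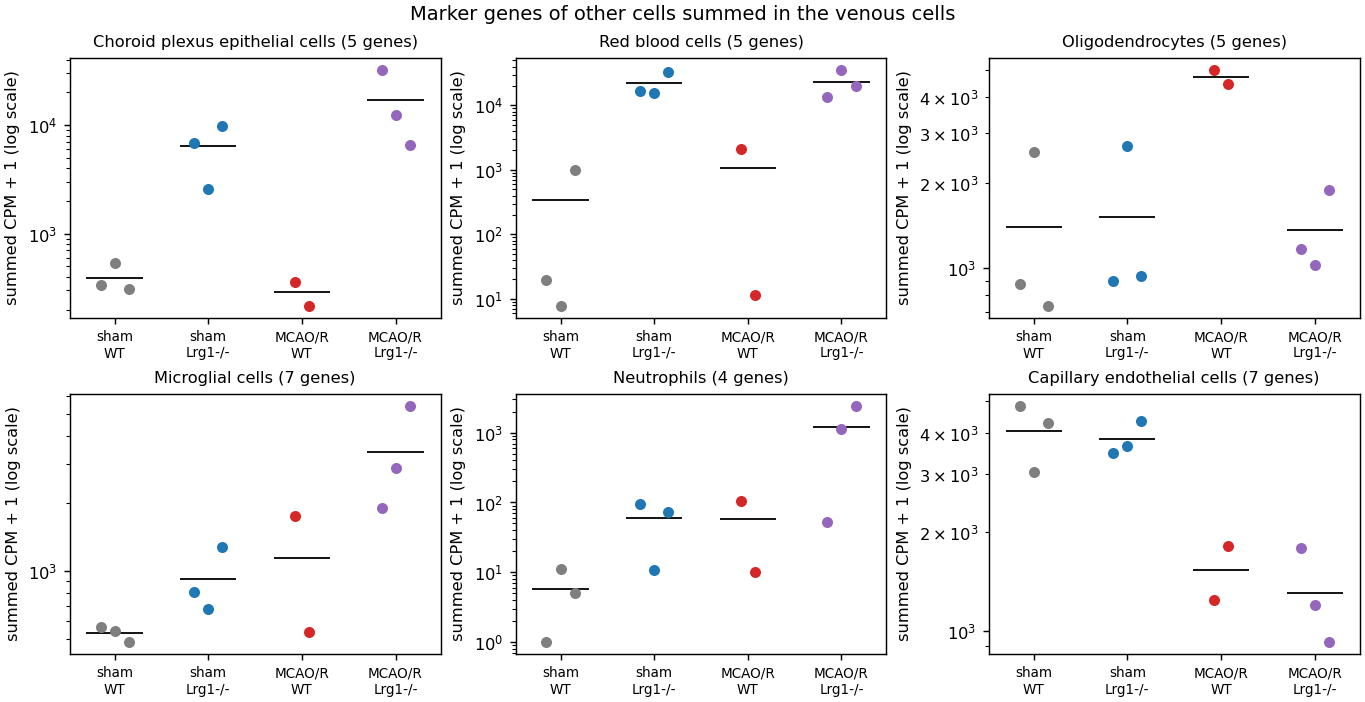
Summed level in venous cells (CPM + 1, log scale) of marker genes of choroid plexus (5 genes), red blood cells (5), oligodendrocytes (5), microglia (7), neutrophils (4) and capillaries (7) in each mouse (dots; lines are group means), for the 4 groups. Choroid plexus genes lie at 215 to 534 CPM in the wild-type mice and at 2565 to 32167 CPM in the Lrg1-/- mice, and capillary genes at 3051 to 4833 CPM in the sham mice and 925 to 1811 CPM after MCAO/R.

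After sham surgery 0 genes were called between the genotypes by edgeR's quasi-likelihood test, with 1416 genes at an unadjusted p below 0.05 and 207 called by DESeq2. The difference of the MCAO/R response between the genotypes also gave 0 called genes, with 832 at an unadjusted p below 0.05 and 47 called by DESeq2. The responses of the 2 genotypes were therefore not shown to differ for Ccn2 (interaction -2.67 ± 0.62, adjusted p = 0.376), Lcn2 (-3.08 ± 0.91, adjusted p = 0.462) or Slc2a1 (-0.97 ± 0.34, adjusted p = 0.500). No other gene of this fit was called, Lrg1 included, although Lrg1 cannot respond in the Lrg1-/- mice. The 2 sham + WT libraries of the fit held 24 and 20 venous cells, which limits what these 2 comparisons can show. Lrg1, which the knockout removes, was not called after sham surgery either. There the fitted WT mice held 88 Lrg1 UMIs in venous cells and the Lrg1-/- mice none. It was at least 51.6-fold lower against a floor of 3 UMIs over the group. The 0 calls therefore miss a known loss and do not show that the genotypes are alike.

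Set against capillary cells of the same mice, the venous response to MCAO/R, averaged over genotypes, differed for 87 of 12811 genes. A response higher in venous cells was called for 20 (0.156%) and a lower one for 67 (0.523%), beside a median difference of 0.06 over all genes. The count was 15 without MCAO/R + Lrg1-/- 2, 21 and 22 without sham + WT 1 and 3, 23 and 57 without sham + Lrg1-/- 1 and 2, 26 and 55 without MCAO/R + WT 1 and 2, and 30 without MCAO/R + Lrg1-/- 5. Ch25h, which makes 25-hydroxycholesterol, was the clearest. In venous cells it was at 296, 143 and 63.7 CPM in the sham + WT mice, 188, 146 and 198 CPM in the sham + Lrg1-/- mice, 282 and 288 CPM in the MCAO/R + WT mice and 336, 191 and 183 CPM in the MCAO/R + Lrg1-/- mice. In capillary cells it went from 7.35, 1.95 and 2.43 CPM and 9.44, 5.13 and 10.8 CPM to 143 and 70.3 CPM and 107, 130 and 89.9 CPM. Venous levels overlapped between sham and MCAO/R, while capillary levels did not, and the venous response was lower by 3.52 ± 0.31 on the log2 scale (adjusted p = 0.000341).

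Vwf, a gene of the rule, was at 725, 915 and 1225.5 CPM in the venous cells of the sham + WT mice and at 532 and 956 CPM in those of the MCAO/R + WT mice, and in capillary cells it went from 97.5, 121 and 93.6 CPM to 270.5 and 235 CPM. Because every venous cell needed a marker of which Vwf was the commonest, its difference of -1.68 ± 0.22 is a description. Ptn was at 1019, 1070 and 1036 CPM and then 242 and 464 CPM in capillary cells of the wild type, and its venous response was lower than the capillary one (-1.88 ± 0.19, adjusted p = 0.00125). The differences of Ch25h and Ptn, with those of Nckap5 (-2.27 ± 0.30, adjusted p = 0.00826), of the kinase Pak1 (-1.97 ± 0.23, adjusted p = 0.00316) and of the interferon-induced chemokine Cxcl10 (-2.07 ± 0.29, adjusted p = 0.0124), kept the call in all 10 fits without a mouse. The rest of the 8 largest of this direction at 50 CPM or more were Selp and, with differences of -2.98 to -2.36, Cadps2, Zfp46 and Ppfia2 (adjusted p = 0.0148 to 0.0363), which were lost in 6, 3 and 2 of those fits with adjusted p-values of up to 0.123 without sham + WT 3, 0.0803 without MCAO/R + Lrg1-/- 2 and 0.0698 without sham + WT 3.

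Selp and the gp130 receptors had lower venous responses that rested on few libraries. Selp was nearly absent from capillary cells, with at most 3.81 CPM, and its difference was -5.23 ± 0.80 (adjusted p = 0.0148). The size of this difference rests in part on capillary counts near 0. Its call was lost without sham + Lrg1-/- 1 (0.0503), MCAO/R + Lrg1-/- 2 (0.363), sham + WT 1 or MCAO/R + WT 1. Il6st, Osmr and Lifr had differences of -0.92 ± 0.16, -1.15 ± 0.24 and -0.75 ± 0.15 (adjusted p = 0.0245, 0.0478 and 0.044), lost in 6, 8 and 10 of 10 fits without a mouse, with the highest adjusted p-values of 0.0865 without sham + WT 3, 0.203 without sham + WT 1 and 0.202 without MCAO/R + WT 1. In the gp130 list 4 of 17 members had a lower venous response and 0 a higher one, against 0.523% and 0.156% of all genes, with a median of -0.75 beside 0.06 over all genes. For Nrp2 the difference was -1.72 ± 0.35 (adjusted p = 0.044), and only the fit without MCAO/R + WT 2 kept it. The highest adjusted p was 0.165, without MCAO/R + Lrg1-/- 2. Selp and Nrp2 were the 2 called of the 11 venous genes that the rule did not use, against 0.523% of all genes. All 11 had a negative difference, with a median of -0.84. The part of the choice of cells by expression in these differences was not tested.

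A higher venous response was called for Mustn1, a nuclear protein of muscle and skeleton (3.29 ± 0.47, adjusted p = 0.0124), and Igfbp4, which binds insulin-like growth factors (3.0 ± 0.49, adjusted p = 0.0197). Igfbp4 was at 4.11, 37.4 and 4.11 CPM in the venous cells of the sham + WT mice and at 196 and 58.0 CPM in the MCAO/R + WT mice, and at 14.3, 7.43 and 5.55 CPM and then 148, 234 and 219 CPM in the Lrg1-/- mice. Capillary cells held 6.38 to 29.6 CPM in sham mice and 11.6 to 54.5 CPM after MCAO/R. Venous levels did not overlap between sham and MCAO/R, and capillary levels did. Mustn1 was lost without sham + WT 3 (0.0708), and Igfbp4 without sham + WT 1 (0.0988) or sham + WT 3 (0.0778). The other 6 of the 8 largest at 50 CPM or more were Ccnd2, a cyclin of the G1 phase, Hspa1b, Myo1e, Arl15, Sipa1l2 and Tiam1. Their differences were 1.06 to 2.10, and each call was lost without sham + WT 1 or sham + WT 3. Of 10 fits without a mouse, Tiam1 kept the call in 0, Hspa1b and Sipa1l2 in 3, Myo1e in 6 and Ccnd2 and Arl15 in 7. Efnb2, the arterial ligand of Ephb4, was at 24.6, 27.2 and 24.7 CPM and then 28.4 and 18.7 CPM in venous cells of the wild type. It is among the arterial genes that limited the capillary cells and not the venous cells, so that its difference of 1.55 ± 0.30 is a description without a test. Lrg1, Lcn2, Serpina3n and Timp1 had no called difference between the venous and capillary responses, unlike Ch25h, Il6st, Osmr and Lifr of the same list. Lcn2 was at 4.74, 4.80 and 3.01 CPM and then 891 and 614 CPM in capillary cells of the wild type, and the venous response differed from it by -1.27 ± 0.39 (adjusted p = 0.19).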

How the data were processed

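Single-cell RNA sequencing libraries (10x Genomics 3′) of 11 mice were analysed. UMI counts per gene and cell were deposited by the authors as filtered matrices, made with Cell Ranger (version 7.0.1 per the file headers) on mm10, and each library was taken as 1 mouse. Cells with more than 500 genes, more than 1000 UMIs and less than 25% mitochondrial UMIs were kept and gated by marker UMIs. No doublet caller was used in the main analysis. Counts were summed over the venous cells of each mouse with at least 20 of them, filtered with filterByExpr, normalised by TMM and tested with edgeR's quasi-likelihood test (edgeR 4.0.16, R 4.3.3) in 1 fit of the 4 groups, with p-values adjusted over all genes by Benjamini and Hochberg. The venous and capillary sums were fitted together with the mouse as a block. Fold changes are log2 values from this fit ± SE, and levels are CPM. The SE was worked back from the test, as the absolute log2 fold change over the square root of the quasi-likelihood F statistic. Gating used python 3.11.15 with scanpy 1.11.5. Exact permutation tests of the venous share (scipy 1.17.1) were planned but are not quoted, because the share rests on genes of the rule. The procedure was tested on simulated data.

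The members and gene lists were chosen with earlier results of these data known. Named were Lrg1, the markers of the rule, members of the 14 fixed lists, and per comparison and direction the 8 called genes of largest change at 50 CPM or more in the higher group whose mice did not overlap. Age differed with genotype, the substrain of the knockout mice is named inconsistently in the methods, and p-values measure only the spread between these mice. Alternatives were RLE, no filter, DESeq2 1.42.0, other gates and limits, thinning to 2000 UMIs, doublet scores, a replicate block and leaving out each mouse. A few results that this choice would name are not reported here.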

Additional observations from a re-analysis of the deposited data

Results flagged for a closer look

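Id3, an inhibitor of differentiation that BMP signalling induces, had fitted log2 fold changes of opposite sign in the 2 genotypes. They were 0.11 in the wild type and -1.34 in the Lrg1-/- mice, a fitted interaction of -1.45 that edgeR's test did not call (adjusted p = 0.388). Id3 was at 577, 881 and 726 CPM in the sham + WT mice, 780 and 734 CPM in the MCAO/R + WT mice, 1260 and 973 and 1059 CPM in the sham + Lrg1-/- mice and 484, 587 and 312 CPM in the MCAO/R + Lrg1-/- mice. The MCAO/R + WT mice lay above the sham + WT mice of the fit and below sham + WT 2, so that the wild-type groups overlapped with all 3 sham mice in.

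Net1, an exchange factor for RhoA named after its values were seen, had log2 fold changes of 0.84 in the wild type and -1.08 in the Lrg1-/- mice, with an interaction of -1.92 that edgeR's test did not call (adjusted p = 0.443). After MCAO/R, Net1 was called lower in the Lrg1-/- than in the WT mice (-1.79, adjusted p = 0.0258). That call was lost in 2 of 10 fits without a mouse, those without MCAO/R + Lrg1-/- 2 (0.0862) or MCAO/R + WT 2. It was at 205, 194 and 212 CPM in the sham + WT mice, 284 and 527 CPM in the MCAO/R + WT mice, 276, 161 and 194 CPM in the sham + Lrg1-/- mice and 145, 63.1 and 124 CPM in the MCAO/R + Lrg1-/- mice.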

How the results depend on the processing

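The counts of called genes moved with the low-count filter, the tool, the gate, the replicate block and single mice, and the cause was not tested. The main counts were 498 for MCAO/R in the wild type, 773 for MCAO/R in the Lrg1-/- mice, 493 for genotype after MCAO/R, 0 for genotype after sham surgery, 0 for the interaction and 87 for venous against capillary responses. In that order, no filter gave 1330, 1505, 1344, 310, 337 and 562 calls, and DESeq2 gave 831, 1143, 1052, 207, 47 and 167. RLE, the 10% mitochondrial limit, removal of doublet scores and removal of haemoglobin genes kept each count within 1.5 times the main one. Thinning to 2000 UMIs gave 26 calls for the Lrg1-/- mice and 140 for genotype after MCAO/R, and with at least 10 cells a mouse 44, 37, 139, 7, 1 and 37. Requiring 2 further venous genes gave 290 for the Lrg1-/- mice, and with at least 10 cells 3, 2 and 278 for the last 3 comparisons. Without any gene of other cell types 34 were called for genotype after MCAO/R, and with at least 8 cells 178, 93, 56 and 2 for the first 4. At 20 cells these gates left no sham + WT mouse, and the last gate no sham + Lrg1-/- mouse, so that comparisons with them could not be fitted. At least 10 cells under the main gate gave 1 for genotype after sham surgery and 2 for the interaction. At least 2 Ackr1 UMIs gave 14 for genotype after sham surgery and 165 for venous against capillary. Without both Xist libraries 443, 11 and 8 were called for the Lrg1-/- mice, genotype after MCAO/R and venous against capillary. With sham + WT 2 in and sham + Lrg1-/- 2 out, 353 were called in the Lrg1-/- mice and 2 for the interaction. The versions with fewer cells, 2 Ackr1 UMIs, no Xist libraries and exchanged mice were chosen after seeing the data, other than 10 cells under the main gate.

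With the replicate block the first 5 counts were 1, 261, 59, 1 and 1. Deviations of same-numbered mice from their group had correlations of -0.41 to 0.092 over 6925 genes. The 2 fitted mice of each wild-type group deviate as mirror images of each other, so that these values cannot show whether the numbers pair mice. The venous against capillary fit has the mouse as its block already.

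Leaving out each mouse in turn gave 98 (without MCAO/R + WT 1) to 577 calls in the wild type, 140 (without sham + Lrg1-/- 1) to 1029 in the Lrg1-/- mice, 3 (without MCAO/R + WT 2) to 752 for genotype after MCAO/R, 0 to 4 after sham surgery, 0 to 31 for the interaction and 15 (without MCAO/R + Lrg1-/- 2) to 83 for venous against capillary. The difference in venous share ranged from 3.82 to 7.86 points for surgery and from 2.71 to 6.48 points for genotype. The surgery difference was 3.77 points after thinning, 2.94 with 2 further venous genes and 2.96 without the Xist libraries. The genotype difference was 5.17 points without doublet scores, 3.90 after thinning, 3.23 with 2 further venous genes and 2.94 with 2 Ackr1 UMIs.

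Of 156 called pairs of a comparison and a named gene that the rule did not use, 41 kept the call in every fit without a mouse, 9 kept it in every alternative, and 7 changed sign in at least 1 of them (Bmpr2 and Osmr in the Lrg1-/- mice, Tgfbr3 and Tubb3 in the wild type, and Efnb2, Lifr and Pak1 for venous against capillary). With 20 and 24 venous cells in the fitted sham + WT mice, low genes there are measured with few UMIs.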

Other observations

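Mal, a lipid raft protein of myelin and 1 of the 5 oligodendrocyte genes, was named after its values were seen. It was at 437, 449 and 535 CPM in the venous cells of the sham + WT mice, at 580, 379 and 556 CPM in the sham + Lrg1-/- mice, at 2018 and 1837 CPM in the MCAO/R + WT mice and at 547, 534 and 580 CPM in the MCAO/R + Lrg1-/- mice. Its log2 fold change was 1.88 ± 0.26 in the wild type (adjusted p = 0.00444), and after MCAO/R the Lrg1-/- mice were lower by 1.68 ± 0.22 on the log2 scale (adjusted p = 0.00747; 0.0736 without MCAO/R + WT 2). In capillary cells of the MCAO/R + WT mice Mal was at 2254 and 2937 CPM.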
